A study of Saccharomyces cerevisiae with 10 samples.

Results

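Deletion of JHD2 was compared with wild type (WT) in budding yeast growing on glutamate as nitrogen source and glucose as carbon source, a synthetic medium called YGD. Members were all replicate columns of the YGD table that carried either strain name, 3 jhd2Δ cultures and 3 WT cultures, and they stand for 2 of the 10 samples of the series. The jhd2Δ cells carried a hygromycin resistance marker in place of JHD2 and were labelled Mat a. The WT cells were labelled Mat alpha. Both strains were prototrophic haploids of the BY4742 background, an S288C derivative, and were cultured to a low density (O.D.600 0.5) before total RNA was depleted of ribosomal RNA and sequenced from a strand-marking kit. The strain list of the study, as it could be read here, gives both strains as MATα, which differs from the label of jhd2Δ. Other strains in that list carry the symbol MATx, so its mating type symbols may not be exact. The mating type of each library was therefore checked from its own RNA. Deletion and labelled mating type went together in all 6 libraries. Their effects cannot be told apart in this comparison.

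Jhd2 is the yeast JmjC demethylase of methylated lysine 4 of histone H3 (H3K4), the mark that the Set1 enzyme lays down in the COMPASS complex at active genes. JmjC enzymes consume α-ketoglutarate and release succinate, and glutamate is readily deaminated to α-ketoglutarate. Yeast mating type works through a short list of genes. In alpha cells the protein α2 together with Mcm1 represses the a-specific genes, and α1 together with Mcm1 activates the alpha-specific genes, whereas a cells lack both regulators, express the a-specific genes and leave the alpha-specific genes without their activator.

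Values are FPKM, the fragment number of a feature scaled to its length and to library size, and they are listed as deposited unless stated otherwise. FPKM sums were 1534363, 1544366 and 1584700 in jhd2Δ replicates 1 to 3, against 1595274, 1599687 and 1183230 in WT. WT replicate 3 stood apart. Its median feature had 7.26 FPKM against 12.2 to 14.9 in the other 5 libraries, its correlation with the other WT libraries was 0.951 to 0.954 where other pairs of the same strain gave 0.981 to 0.983, and ENO2 and SCR1 had failed estimates in it. Its library scale was 1.59 against 0.837 to 1.02 elsewhere. Calls and medians that shift without this library are given without it as well. Groups were compared with limma on log2(FPKM × library scale + 1), and features whose p stayed under 0.05 after Benjamini-Hochberg adjustment, with a change over 1.4-fold, are the called ones. The p-values measure the spread between these cultures.

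Of 6213 features tested, 21 were called, which is 0.338% of them. In jhd2Δ 12 were higher (0.193%) and 9 were lower (0.145%). Mating type genes made up most of them, with 6 a-specific genes and the silent-cassette gene HMRA1 higher in jhd2Δ and 5 alpha-specific genes lower. The rest were JHD2 itself, 4 neighbours of mating type genes, 3 genes of a stretch of chromosome III and a mitochondrial tRNA gene. An unadjusted p under 0.05 was reached by 426 features. The median log2 fold change over all features was -0.00, which follows from the library scale (0.20 without a scale). Leaving out 1 library at a time, the fit called 38 of 6233 features without WT replicate 3 (0.610%, with 19 higher, 0.305%, and 19 lower, 0.305%), 13 without jhd2Δ replicate 1, 12 without jhd2Δ replicate 3 and 14 to 20 without any other. With limma array weights, which gave WT replicate 3 a weight of 0.111 and the other libraries 0.888 to 4.09, 91 features were called (1.46%), 38 higher and 53 lower in jhd2Δ.

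**Figure D1:**
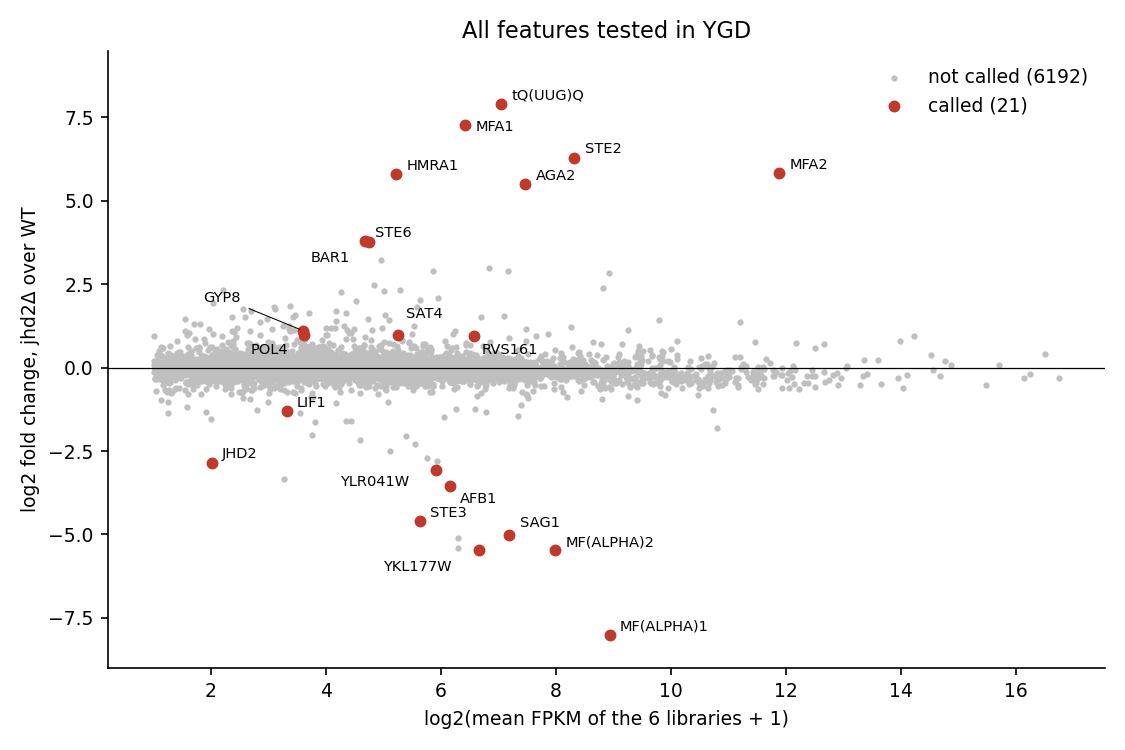
Log2 fold change of jhd2Δ over WT (vertical axis) against log2(mean FPKM + 1) of the 6 libraries (horizontal axis) for the features tested in YGD, with the 21 called features in red and named. MFA1 and tQ(UUG)Q were listed at 0 in all WT libraries, so their height depends on the pseudocount of 1, and STE2 at 6.30 and MF(ALPHA)1 at -8.01 stand furthest out among the others.

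JHD2 was listed at 0, 0 and 0.0446 FPKM in jhd2Δ, against 7.01, 7.14 and 3.97 FPKM in WT. The groups did not overlap, and the log2 fold change, whose size depends on the pseudocount, was -2.85 (SE 0.141, limma adjusted p = 0.000265). Its neighbours on chromosome X were not called: of 6 features tested within 5 kb of JHD2, among them STE24, ILM1 and ATP2, 0 passed the limma test, and the smallest unadjusted p was 0.0699 (ILM1). The gene of the opposing methyltransferase, SET1, had 8.998, 10.8 and 8.51 FPKM in jhd2Δ, against 9.04, 9.58 and 4.30 FPKM in WT (log2 fold change 0.14, SE 0.108). These levels overlapped between the strains. SPP1, the COMPASS subunit that recognises methylated H3K4, had 5.76, 6.42 and 5.03 FPKM in jhd2Δ, against 7.61, 7.85 and 4.59 FPKM in WT (log2 fold change -0.36, adjusted p = 0.566). Of 15 tested genes for H3K4 methylation, which included COMPASS, the Paf1 complex and the enzymes of histone H2B ubiquitylation, JHD2 alone was called, 2 including it had an unadjusted p under 0.05, and the list's median was -0.06 (-0.11 without WT replicate 3). LGE1, a partner of the ubiquitin ligase Bre1, lay under the minimum of 1 FPKM. The other JmjC genes GIS1 (log2 fold change 0.36), JHD1 (0.14), ECM5 (0.06) and RPH1 (-0.12) had overlapping levels in the strains, with 0 of the 4 called and 0 at an unadjusted p under 0.05.

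The a-specific genes encode what an a cell needs to signal to and meet an alpha cell. Of 7 tested, 7 had a log2 fold change above 0 and 6 were called higher in jhd2Δ, with a list median of 5.49 beside -0.00 over all features. MFA1, one of a pair of genes for the a-factor pheromone, had 152, 195 and 160 FPKM in jhd2Δ and was listed at 0 in each WT library (adjusted p = 2.78e-07). No fold is given for it. MFA2, the other a-factor gene, had 7488, 5523 and 9138 FPKM in jhd2Δ, against 199, 122 and 49.8 FPKM in WT. The strains were far apart and the log2 fold change was 5.84 (SE 0.371, adjusted p = 0.00109). In bulk RNA, fewer cells of a type and less RNA per cell cannot be told apart, so the low WT values do not say whether few or all cells carried them.

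STE2, the receptor for alpha-factor, had 644, 603 and 646 FPKM in jhd2Δ, against 6.81, 6.16 and 4.94 FPKM in WT. Each strain was tight around its own mean, 631 ± 24.2 FPKM in jhd2Δ and 5.97 ± 0.949 FPKM in WT (SD, n = 3 each), and the log2 fold change was 6.30 (SE 0.166, limma adjusted p = 7.66e-06). STE6, the transporter that exports a-factor, had 46.1, 51.1 and 43.3 FPKM in jhd2Δ, against 2.23, 2.44 and 1.52 FPKM in WT (log2 fold change 3.79, SE 0.0920). BAR1, the secreted protease that degrades alpha-factor, was close to it in size, with 45.4, 50.9 and 52.0 FPKM in jhd2Δ and 2.58, 2.37 and 1.75 FPKM in WT (log2 fold change 3.78, SE 0.133). AGA2, the binding subunit of a-agglutinin, had 316, 301 and 421 FPKM in jhd2Δ, against 8.61, 2.72 and 6.70 FPKM in WT. Its WT libraries spread more than those of STE2, and its log2 fold change was 5.49 (SE 0.465, adjusted p = 0.00567, and 0.0524 without jhd2Δ replicate 3). ASG7, which encodes a regulator of pheromone signalling, was the weakest of the list, at 5.72, 4.65 and 5.73 FPKM in jhd2Δ and 2.30, 3.78 and 1.34 FPKM in WT. Its strains did not overlap, but it was not called (log2 fold change 0.78).

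**Figure D2:**
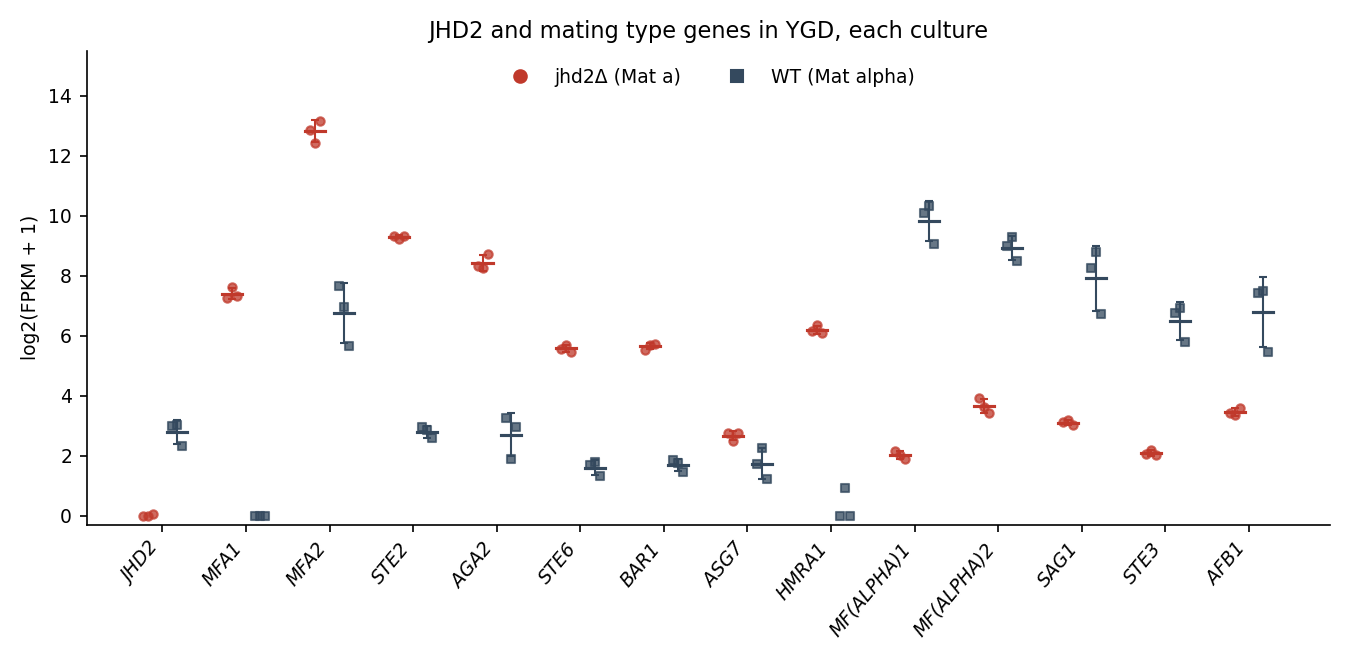
Log2(FPKM + 1) of JHD2 and 13 mating type genes in each culture, jhd2Δ as red circles left of WT as dark squares, with horizontal lines for means and bars for SD (n = 3) where no library was listed at 0. The a-specific genes from MFA1 to BAR1 sit higher in all jhd2Δ cultures and the alpha-specific genes from MF(ALPHA)1 to AFB1 sit higher in all WT cultures, where replicate 3 lies lowest in each of those 5 on this unscaled axis.

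The sequences before these genes carry a known signature, the operator bound by α2 with Mcm1 in alpha cells. A pattern was searched on both strands in the 500 bases before each start codon, and it was written as TGT, then 5 or 6 bases of any kind, CC, 6 of any kind, GG, 5 or 6 of any kind, and ACA. It reads the same on both strands, so each site matched on both. It was found before 13 of 5977 nuclear protein genes (0.218%), and 6 of these were the 6 called a-specific genes. ASG7 had no match in its window. The 6 sites are shown because the genes behind them moved together; capitals mark the letters fixed by the pattern, and the sequences and positions are from the RefSeq assembly of build R64.
MFA1 (chrIV:1384944-1384970, plus strand): TGTaattaCCcaaaaaGGaaatttACA
MFA2 (chrXIV:352165-352191, plus strand): TGTatttaCCtattcgGGaaatttACA
STE2 (chrVI:82353-82379, plus strand): TGTaaatttCCtaattgGGtaagtACA
STE6 (chrXI:46479-46505, minus strand): TGTaattaCCtaatagGGaaatttACA
BAR1 (chrIX:322080-322105, plus strand): TGTaattaCCgtaaaaGGaaattACA
AGA2 (chrVII:437104-437129, minus strand): TGTaatttCCgaatacGGtaattACA

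These sites ended between 183 bases (STE6) and 270 bases (AGA2) before the start codon. The remaining matches lay before GYP8, which shares the site of STE2, and before APL3, HNT2 and 2 divergent pairs, SWC5 with PBP2 and HSF1 with MPS2. None of those last 6 genes was called, and their log2 fold changes lay between -0.20 (SWC5) and 0.21 (HNT2). APL3, an adaptor subunit of clathrin coats, had 14.1, 15.6 and 11.4 FPKM in jhd2Δ, against 12.4, 12.9 and 6.40 FPKM in WT. HSF1, the heat shock transcription factor, had 10.1, 10.2 and 7.78 FPKM in jhd2Δ, against 11.5, 9.74 and 4.09 FPKM in WT. The deposited values of both overlapped between the strains. The sites before these 6 genes are shown because they share the fixed letters of the a-specific sites, while their genes were not called.
APL3 (chrII:147072-147097, plus strand): TGTttgatCCagctgaGGtataaACA
SWC5 and PBP2 (chrII:683218-683243, plus strand): TGTctttcCCcgatatGGtacttACA
HNT2 (chrIV:1073809-1073834, plus strand): TGTtccacCCcagcttGGgagaaACA
HSF1 and MPS2 (chrVII:368432-368458, plus strand): TGTcatataCCcgtgaaGGcatttACA

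The alpha-specific genes encode the partner set. All 5 tested fell in jhd2Δ, with a list median of -5.02. MF(ALPHA)1, the main alpha-factor gene, had 3.49, 3.02 and 2.70 FPKM in jhd2Δ, against 1095, 1289 and 537 FPKM in WT, and its log2 fold change of -8.01 (SE 0.145, limma adjusted p = 1.36e-06) was the lowest of all features tested. MF(ALPHA)2, the minor alpha-factor gene, had 13.98, 11.4 and 9.75 FPKM in jhd2Δ, against 506, 619 and 357 FPKM in WT (log2 fold change -5.48, SE 0.159). Of the 51-base stretches in MF(ALPHA)1, 86.2% occur once in the genome, the rest being its internal repeats, and those in MF(ALPHA)2 all occur once. STE3, the receptor for a-factor, had 3.20, 3.55 and 3.04 FPKM in jhd2Δ, against 107, 121 and 53.6 FPKM in WT (log2 fold change -4.59, SE 0.109). SAG1, the alpha-agglutinin of the cell wall, had 7.64, 8.07 and 7.08 FPKM in jhd2Δ, against 303, 440 and 104 FPKM in WT (log2 fold change -5.02, SE 0.296). AFB1, the secreted a-factor barrier protein, had 9.69, 9.11 and 11.1 FPKM in jhd2Δ, against 170, 179 and 42.7 FPKM in WT. As deposited, WT replicate 3 was the lowest of the WT cultures at all 5 genes, and without it the log2 fold change was -5.42 for MF(ALPHA)2 and -5.36 for SAG1. AFB1 had a log2 fold change of -3.55 with an adjusted p of 0.0108 (-3.95 without WT replicate 3), and the adjusted p was 0.0907, 0.0976 and 0.0674 without jhd2Δ replicates 1, 2 and 3 in turn.

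The operator pattern was found before 0 of the 5 alpha-specific genes. A second pattern, CAATG followed by any base and CAG, marks the Q box bound by α1, and it was found on either strand before 3 of these 5 genes, 0 of 7 a-specific genes and 87 of 5977 nuclear protein genes (1.46%). The matches before STE3 and SAG1 are shown with 10 bases on each side, since the pattern was found in the alpha-specific and not in the a-specific list, with the fixed letters in capitals.
STE3 (chrXI:114950-114978, plus strand): attagtgtcaCAATGaCAGagaaaattgt
SAG1 (chrX:445113-445141, minus strand): ttttaccataCAATGgCAGctttatgtca

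HMRA1 is the silent copy of the a1 gene on chromosome III, and its value is the reading of the a cassette in these tables. It had 70.0, 80.5 and 66.4 FPKM in jhd2Δ, against 0, 0.912 and 0 FPKM in WT (log2 fold change 5.79, with a size that depends on the pseudocount, SE 0.240, adjusted p = 9.48e-05). All 51-base stretches of HMRA1 occur once in the reference, which holds the alpha cassette at MAT, so RNA of a1 from a MATa locus falls on this gene. The other 5 cassette genes, MATALPHA1, MATALPHA2, HMLALPHA1, HMLALPHA2 and HMRA2, were listed at 0 in every library, and 0% of their 51-base stretches occur once. The markers of both mating types therefore followed the labels: jhd2Δ libraries carried the a set and WT libraries the alpha set. The 8 silencing genes tested, SIR1 to SIR4 among them, had a median of -0.08, with 0 called and 1 at an unadjusted p under 0.05. That 1 was SIR1, which helps to establish silencing at the cassettes (log2 fold change -0.31, limma adjusted p = 0.713). SIR2, the silencing deacetylase, had -0.18, its partners SIR3 and SIR4 had 0.04 and 0.02, and the related deacetylase genes had -0.30 (HST2), -0.19 (HST4), 0.16 (HST1) and 0.17 (HST3).

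Some of the called features lay beside mating type genes. Of 26 tested features within 1 kb of a mating type gene, 4 were called, beside 0.338% of all features. A pair of these overlaps its neighbour on the opposite strand. YKL177W shares 272 of its 339 bases with STE3 and had 4.60, 1.06 and 3.11 FPKM in jhd2Δ, against 271, 284 and 36.7 FPKM in WT (log2 fold change -5.48, adjusted p = 0.0395). YLR041W shares 206 of its 321 bases with AFB1 and had 10.4, 12.02 and 12.6 FPKM in jhd2Δ, against 131, 153 and 35.4 FPKM in WT (log2 fold change -3.06, adjusted p = 0.0194). The sources used here do not give the strand setting behind the FPKM values, so reads of these features and of STE3 and AFB1 cannot be told apart. Both calls rest on all cultures: without single libraries other than WT replicate 3 the adjusted p ran from 0.117 to 0.195 for YKL177W and from 0.0568 to 0.159 for YLR041W.

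The other pair does not overlap a mating type gene. GYP8, which encodes a GTPase-activating protein for Rab proteins, is transcribed away from STE2 across the shared operator, 440 bases before its start codon. It had 16.6, 17.0 and 15.05 FPKM in jhd2Δ, against 7.46, 6.97 and 4.01 FPKM in WT. The strains did not overlap, the log2 fold change was 1.10 (SE 0.0867, adjusted p = 0.00381), and the adjusted p was 0.0577 without jhd2Δ replicate 1 and 0.0524 without jhd2Δ replicate 3. LIF1, whose protein joins DNA ends with the ligase Dnl4, lies 206 bases from MF(ALPHA)2, and these genes run toward each other on opposite strands. The part of MF(ALPHA)2 reads in the values of LIF1 was not tested. LIF1 had 4.83, 5.87 and 4.50 FPKM in jhd2Δ, against 12.6, 18.9 and 7.08 FPKM in WT (log2 fold change -1.30, SE 0.166, adjusted p = 0.0474). LIF1 was lower in every jhd2Δ culture, but the call was the weakest of the 21 and was lost without WT replicate 1 (adjusted p = 0.0958) and without jhd2Δ replicate 1 (0.294), 2 (0.248) or 3 (0.292).

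Genes that both mating types share did not move with these sets. Among 29 tested genes of the pheromone pathway, which carry the signal from the receptor through the G protein and the kinase cascade to Ste12, 0 were called, 2 had an unadjusted p under 0.05 and the median was -0.00 (-0.076 without WT replicate 3). The 3 lowest were DIG2 (log2 fold change -0.57), FUS3 (-0.47) and BEM1 (-0.30), and the 3 highest were AXL1 (0.16), STE13 (0.16) and STE7 (0.12). STE12, the transcription factor at the end of the pathway, had 16.8, 17.6 and 15.3 FPKM in jhd2Δ, against 18.5, 17.9 and 9.23 FPKM in WT (log2 fold change -0.04). Of 6 haploid regulators, genes that diploids repress or that control haploid behaviour, 0 were called, 0 had an unadjusted p under 0.05 and the median was -0.01 (-0.10 without WT replicate 3). Besides STE12 these were HO (-0.27), the endonuclease of mating type switching, GPA1 (-0.02), RME1 (-0.00), NEJ1 (0.13), a factor of end joining, and AXL1 (0.16). After scaling, HO was lower and AXL1 higher in all jhd2Δ libraries than in all WT libraries, and the other 4 overlapped. Of all features, 7.37% were lower and 7.86% higher in this way.

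Among genes that pheromone induces, the calls depended on WT replicate 3. With all libraries, 0 of the 18 tested were called by limma, 5 had an unadjusted p under 0.05 and their median was -0.14, while 6 had every jhd2Δ library below every WT library after scaling, beside 7.37% of all features. Without WT replicate 3 the median was -0.20 and 3 of the 18 were called lower, beside 0.305% of all features in that fit. FIG2, a mating adhesin, had 3.70, 3.69 and 3.40 FPKM in jhd2Δ, against 7.59, 7.71 and 3.03 FPKM in WT, and its log2 fold change was -0.72 with all libraries and -0.87 (adjusted p = 0.0257) without WT replicate 3. AGA1, the anchor of the a-agglutinin that AGA2 completes, had 9.92, 9.77 and 11.1 FPKM in jhd2Δ, against 31.9, 33.0 and 6.60 FPKM in WT, with log2 fold changes of -1.06 and, without WT replicate 3, -1.52 (adjusted p = 0.00982). The deposited value of WT replicate 3 lay under those of all jhd2Δ cultures, whereas the fold change stayed below 0 without any 1 of the WT libraries (-1.52 to -0.82). NFG1, a regulator of filamentous growth next to AFB1, had 3.47, 3.70 and 2.30 FPKM in jhd2Δ, against 10.4, 12.2 and 3.60 FPKM in WT (log2 fold change -1.28, and -1.53 with an adjusted p of 0.0137 without WT replicate 3). FUS1, a classic reporter of pheromone signalling, was not called either way, at 3.54, 3.22 and 3.32 FPKM in jhd2Δ and 4.58, 5.67 and 2.17 FPKM in WT.

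The promoter windows show the pheromone response element, searched as TGAAACA on both strands, across these lists. It was found before 7 of 7 a-specific genes, 2 of 5 alpha-specific genes (MF(ALPHA)2 and SAG1) and 13 of 20 pheromone-induced genes, beside 719 of 5977 nuclear protein genes (12%). FIG2 and AGA1 had a match. The operator and the Q box were found before 0 of the 20 pheromone-induced genes.

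Neighbouring genes of 1 stretch of chromosome III had like fold changes. From SAT4 to SRD1, 128470 to 148903 in the coordinates of the table (20.4 kb), 11 tested neighbours had a median log2 fold change of 0.98, 8 of them had every jhd2Δ library above every WT library after scaling (7.86% of all features did), and 3 were called, beside 0.338% of all features. The median was 1.05 without WT replicate 3. The bounds of the stretch were chosen with its values known, so these figures are a description. Relative to the mean of WT replicates 1 and 2, the median level of the 11 features on the log2 scale was 1.02, 0.99 and 1.09 in the jhd2Δ cultures and 0.23 in WT replicate 3. The 10 tested features to its left had a median of 0.09 and the 10 to its right 0.30. Every jhd2Δ library lay above every WT library after scaling at 1 of the 10 on the left and 4 of the 10 on the right. Over 6060 windows of 10 neighbouring features in the genome, medians ran between -0.37 and 0.97, and the window from YCR006C to CTO1, inside this stretch for most of its length, was the highest. The highest window that did not touch the stretch was on the mitochondrial genome, at 0.58.

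SAT4, a kinase gene of salt tolerance, had 49.4, 57.4 and 47.2 FPKM in jhd2Δ, against 24.9, 29.2 and 13.6 FPKM in WT (log2 fold change 0.99, SE 0.107, limma adjusted p = 0.0194). RVS161, which encodes an amphiphysin-like protein of endocytosis and cell fusion, had 129, 141 and 119 FPKM in jhd2Δ, against 72.6, 64.0 and 38.6 FPKM in WT (log2 fold change 0.96, SE 0.105, adjusted p = 0.0203). POL4, a DNA polymerase of end joining, had 15.8, 17.2 and 15.2 FPKM in jhd2Δ, against 7.39, 7.68 and 4.79 FPKM in WT (log2 fold change 0.98, SE 0.0941, adjusted p = 0.0108). All 3 lay near a 2-fold difference and none overlapped, yet the calls were lost when other libraries than WT replicate 3 were left out. The adjusted p of SAT4 was 0.107 without WT replicate 1 and 0.156, 0.159 and 0.184 without jhd2Δ replicates 1, 2 and 3. For RVS161 it was 0.0869 and 0.128 without WT replicates 1 and 2 and 0.159 to 0.233 without a jhd2Δ replicate. For POL4 it was 0.0629 and 0.0699 without WT replicates 1 and 2 and 0.0976 to 0.117 without a jhd2Δ replicate.

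Without WT replicate 3, 7 of the 11 neighbours were called, beside 0.610% of all features. The 4 added were ADP1, a putative permease, CTO1 (40.2, 42.3 and 34.4 FPKM in jhd2Δ, against 14.98, 14.5 and 14.8 FPKM in WT), CWH43, which remodels the lipid of GPI anchors, and SRD1, which acts in processing of pre-rRNA. CWH43 had 261, 254 and 258 FPKM in jhd2Δ, against 101, 99.4 and 90.6 FPKM in WT, and its log2 fold change was 1.17 with all libraries and 1.41 (adjusted p = 0.00446) without WT replicate 3. ADP1 had 109, 108 and 93.8 FPKM in jhd2Δ, against 47.2, 45.8 and 36.4 FPKM in WT (log2 fold change 1.02, and 1.19 without WT replicate 3). RBP95 was not called in either fit, at 31.7, 45.0 and 26.3 FPKM in jhd2Δ and 16.4, 17.7 and 11.003 FPKM in WT. A pair of neighbours stood apart from the rest: the acetate transporter gene ADY2 (log2 fold change 0.46), with 0.428 to 3.28 FPKM, and YCR013C (0.02). YCR013C overlaps PGK1 on the opposite strand, and how reads of the overlap were assigned is not known. The listed values of the pair differed. YCR013C had 1565, 1586 and 1471 FPKM in jhd2Δ, against 1498, 1484 and 977 FPKM in WT. PGK1, the phosphoglycerate kinase of glycolysis, had 22032, 18191 and 25256 FPKM in jhd2Δ, against 10448, 10390 and 11062 FPKM in WT (log2 fold change 0.80, SE 0.346, adjusted p = 0.752). Its deposited values did not overlap, but its scaled values did, since WT replicate 3 took a scale of 1.59.

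**Figure D3:**
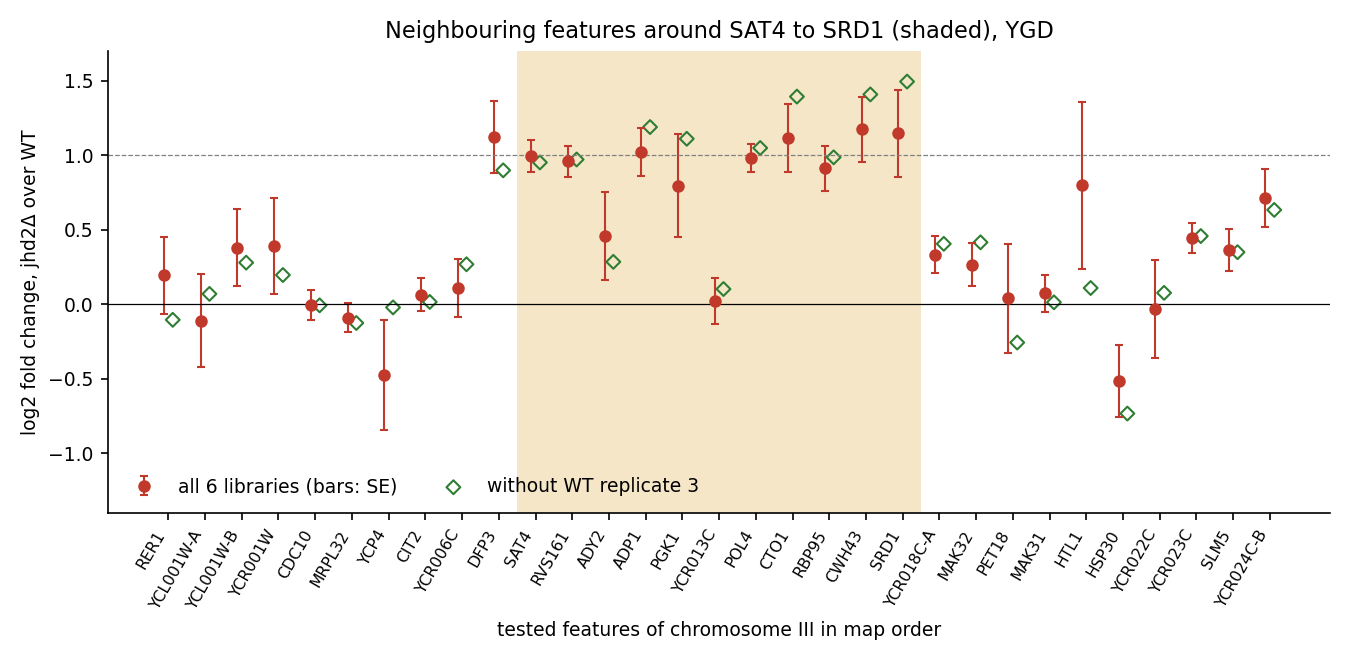
Log2 fold change of jhd2Δ over WT for 31 neighbouring tested features of chromosome III in map order, with all 6 libraries (red circles, bars SE) and without WT replicate 3 (open diamonds), SAT4 to SRD1 shaded and a dashed line at 1. The shaded features lie near 1 except ADY2 and YCR013C, and the flanks have medians of 0.09 (left) and 0.30 (right).

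The reference annotation places repeated elements around the stretch. Long terminal repeats of retrotransposons lie at 124134-124465 to its left, at 142758-143080 inside it, and at 149482-149809, 150220-150551, 150695-151055 and 151521-151851 to its right, most of them beside tRNA genes. DFP3, the last tested feature on the left, had 14.7, 17.0 and 10.7 FPKM in jhd2Δ, against 8.61, 6.14 and 2.25 FPKM in WT (log2 fold change 1.12, adjusted p = 0.380), and was not called. In medium with ammonium in place of glutamate (YAD), each strain has its own 3 libraries. The median there of the 11 features other than ADY2, which was not tested in YAD, was 1.19. YCR013C had a log2 fold change of -0.33 in YAD. Copy number was not measured.

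The mitochondrial glutamine tRNA gene tQ(UUG)Q had 273, 279 and 233 FPKM in jhd2Δ and was listed at 0 in all 3 WT libraries (adjusted p = 1.20e-07). It is 76 bases long, and it was listed at 0 in all 6 YAD libraries. Short features switch between 0 and high values in these tables: 30 of 81 tested features under 120 bases were listed at 0 in at least 1 library and over 50 FPKM in another, against 10 of 6132 longer ones. MFA1 (111 bases) and MFA2 (117 bases) fall in the same length class. The part of feature length in the tQ(UUG)Q result was not tested.

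Genes of the mitochondrial genome had small fold changes, most above 0. Its 8 protein genes had a median log2 fold change of 0.32, 0.24 without WT replicate 3, with 0 called, 1 at an unadjusted p under 0.05 and 5 of 8 above WT in every library after scaling, beside 7.86% of all features. COB, for cytochrome b, had 1008, 1246 and 1008 FPKM in jhd2Δ, against 967, 946 and 302 FPKM in WT (log2 fold change 0.50, adjusted p = 0.792, and 0.23 without WT replicate 3). OLI1, for a subunit of ATP synthase, had 5236, 6455 and 5173 FPKM in jhd2Δ, against 5052, 4701 and 1006 FPKM in WT (log2 fold change 0.73, adjusted p = 0.792, and 0.25 without WT replicate 3). The other 6 had log2 fold changes of 0.37 (COX1), 0.35 (COX3), 0.30 (ATP6), 0.21 (ATP8), 0.18 (VAR1) and -0.05 (COX2). For COB and OLI1 the gap to WT replicates 1 and 2 was small and the low library was WT replicate 3, in which mitochondrial features held 0.484% of the FPKM sum, against 0.805% to 1.10% in the other 5. Nuclear genes for electron transport had a median of -0.14 over 27 tested (-0.06 without WT replicate 3), with 0 called and 4 at an unadjusted p under 0.05. After scaling, 8 of the 27 had every jhd2Δ library below every WT library, beside 7.37% of all features. QCR6 had the lowest value (-0.78) and QCR10 the highest (0.32).

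Genes of glutamate use and nitrogen supply were read because the medium feeds glutamate. Among 22 genes of glutamate and glutamine metabolism 0 were called by limma, 3 had an unadjusted p under 0.05 and the median was -0.03 (0.09 without WT replicate 3). GDH2, the dehydrogenase that releases α-ketoglutarate and ammonium from glutamate, had 1096, 1023 and 845 FPKM in jhd2Δ, against 747, 604 and 574 FPKM in WT. The deposited values did not overlap, and after scaling they did (log2 fold change 0.39, SE 0.225, adjusted p = 0.793, and 0.60 without WT replicate 3). GDH1, the main glutamate-forming dehydrogenase, had 460, 466 and 373 FPKM in jhd2Δ, against 553, 459 and 423 FPKM in WT (log2 fold change -0.37). PUT1 (0.69) and PUT4 (0.65) of proline use were the 2 highest of the list. Of 25 genes under nitrogen catabolite repression, 23 had a log2 fold change above 0, as 3103 of all 6213 features did. The median was 0.19, and 0 were called, with 1 at an unadjusted p under 0.05. Between replicates of a strain, the median level of the list varied with an SD of 0.198 on the log2 scale. Without WT replicate 3, 20 of the 25 had a log2 fold change above 0 and its median was 0.20. DAL80, a repressor of this regulon, had the highest (0.58), with 80.0, 53.7 and 72.7 FPKM in jhd2Δ and 47.2, 32.7 and 36.3 FPKM in WT. MEP1 and NPR3, 2 of the 25, had all jhd2Δ libraries above all WT libraries after scaling, a share near the 7.86% of all features.

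The remaining lists of central metabolism had 0 genes called by limma, with 0 or 1 gene a list at an unadjusted p under 0.05 except for 2 amino acid permeases. TCA cycle genes had a median of -0.14 (0.01 without WT replicate 3), with MDH2 highest (0.34) and SDH1 lowest (-0.48). Retrograde genes, which answer to mitochondrial state and supply α-ketoglutarate, had 0.01 (0.02 without WT replicate 3). Lysine synthesis, which starts from α-ketoglutarate, had -0.06 (0.034), arginine synthesis 0.05 (0.24) and amino acid permeases 0.09 (0.16), again with the value without WT replicate 3 in brackets. Glycolysis had a median of -0.18 with all libraries and 0.07 without WT replicate 3, in which these genes stood 1.02 above the other WT cultures on the log2 scale. ODC1, which encodes a mitochondrial carrier of α-ketoglutarate and related acids, had one of the 5 smallest p of uncalled features lower in jhd2Δ, with 8.51, 8.56 and 5.98 FPKM in jhd2Δ and 14.6, 13.3 and 7.55 FPKM in WT (log2 fold change -0.73, adjusted p = 0.132). The auxotrophic marker genes, read because strains of this background often differ in them, had a median of -0.05 (0.11 without WT replicate 3) with 0 of 7 called and 1 at an unadjusted p under 0.05. Their log2 fold changes were -0.46 for HIS3, -0.09 for MET17, -0.08 for LYS2, -0.05 for LEU2, -0.03 for URA3, 0.03 for TRP1 and 0.06 for ADE2.

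Phosphate starvation genes had fold changes mostly below 0 and no call. Of 29 tested, 9 had an unadjusted p under 0.05 (426 of all 6213 features did), 24 had a log2 fold change below 0, 10 had every jhd2Δ library below every WT library after scaling (7.37% of all features did), and the median was -0.26 (-0.21 without WT replicate 3). PHO5, the secreted acid phosphatase, had 92.8, 125 and 133 FPKM in jhd2Δ, against 225, 253 and 180 FPKM in WT (log2 fold change -1.13, SE 0.217, adjusted p = 0.289). The strains did not overlap there. PHO84, the high-affinity phosphate transporter, had 410, 532 and 576 FPKM in jhd2Δ, against 749, 1002 and 806 FPKM in WT (log2 fold change -0.98, adjusted p = 0.629). VTC3 and VTC1, of the polyphosphate polymerase complex, had log2 fold changes of -0.85 and -0.81. The highest values of the list were VTC5 (0.41), PHO2 (0.30) and PHO87 (0.20).

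Values of histone and ribosomal protein genes depended on WT replicate 3. All 10 histone genes had log2 fold changes at or below 0, with a median of -0.32 (-0.20 without WT replicate 3), 0 called and 2 at an unadjusted p under 0.05. After scaling, 5 of the 10 had every jhd2Δ library below every WT library, beside 7.37% of all features. HHT1, for histone H3, was lowest, at 319, 412 and 286 FPKM in jhd2Δ and 526, 557 and 575 FPKM in WT (log2 fold change -0.95, adjusted p = 0.629, and -0.64 without WT replicate 3). Cytosolic ribosomal protein genes held 16.8%, 18.1% and 16.5% of the FPKM sum in jhd2Δ, against 18.4%, 17.9% and 22.04% in WT. Of 137 tested, 56 had every jhd2Δ library below every WT library after scaling (7.37% of all features did), 5 had an unadjusted p under 0.05 and 0 were called, and their median of -0.29 was -0.12 without WT replicate 3. RPL41B (-1.82), RPL39 (-1.60) and RPL41A (-1.28), which encode very small ribosomal proteins, had the lowest values. The part of feature length in these values was not tested. Ribosome biogenesis genes had a median of -0.14 over 41 (-0.17 without WT replicate 3) and mitochondrial ribosomal proteins -0.06 over 69 (-0.077), with 0 called and 1 at an unadjusted p under 0.05 in each.

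Stress genes had a median of -0.19 over 37 (-0.077 without WT replicate 3), with 0 called and 3 at an unadjusted p under 0.05. HSP12, a small membrane heat shock protein, had 65.9, 79.4 and 60.5 FPKM in jhd2Δ, against 129, 190 and 127 FPKM in WT (log2 fold change -1.32, SE 0.212, adjusted p = 0.151). It did not overlap, and it was called without WT replicate 1 (-1.54, adjusted p = 0.0247). The 107 transcription factor genes tested had a median of 0.02 (-0.054 without WT replicate 3), 19 genes of the G1 to S transition 0.03 (-0.026), 20 genes of iron uptake and use 0.09 (0.12), 20 genes of sulfur metabolism 0.11 (0.23), 11 hexose transporters 0.14 (0.23), 8 seripauperins 0.15 (0.20) and 9 COS genes -0.11 (0.14), with the value without WT replicate 3 in brackets. In each list 0 were called and 0 to 3 had an unadjusted p under 0.05. The medians of transcription factors, G1 to S and COS genes changed sign without that library. Of the seripauperins, a subtelomeric family of cell wall proteins, PAU13 had 3.39, 1.65 and 5.32 FPKM in jhd2Δ, against 0, 0 and 1.27 FPKM in WT, and 6 others had log2 fold changes between -0.08 (PAU5) and 0.30 (PAU7), namely PAU24, PAU3, PAU23 and PAU17 besides those. PAU2 had 20.7, 22.7 and 19.1 FPKM in jhd2Δ, against 12.5, 11.6 and 4.29 FPKM in WT (log2 fold change 0.97), and it passed without WT replicate 3 (0.79, adjusted p = 0.0148). Only 65.5% of the 51-base stretches of PAU2 occur once in the genome, so its reads may be shared with its relatives.

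**Figure D4:**
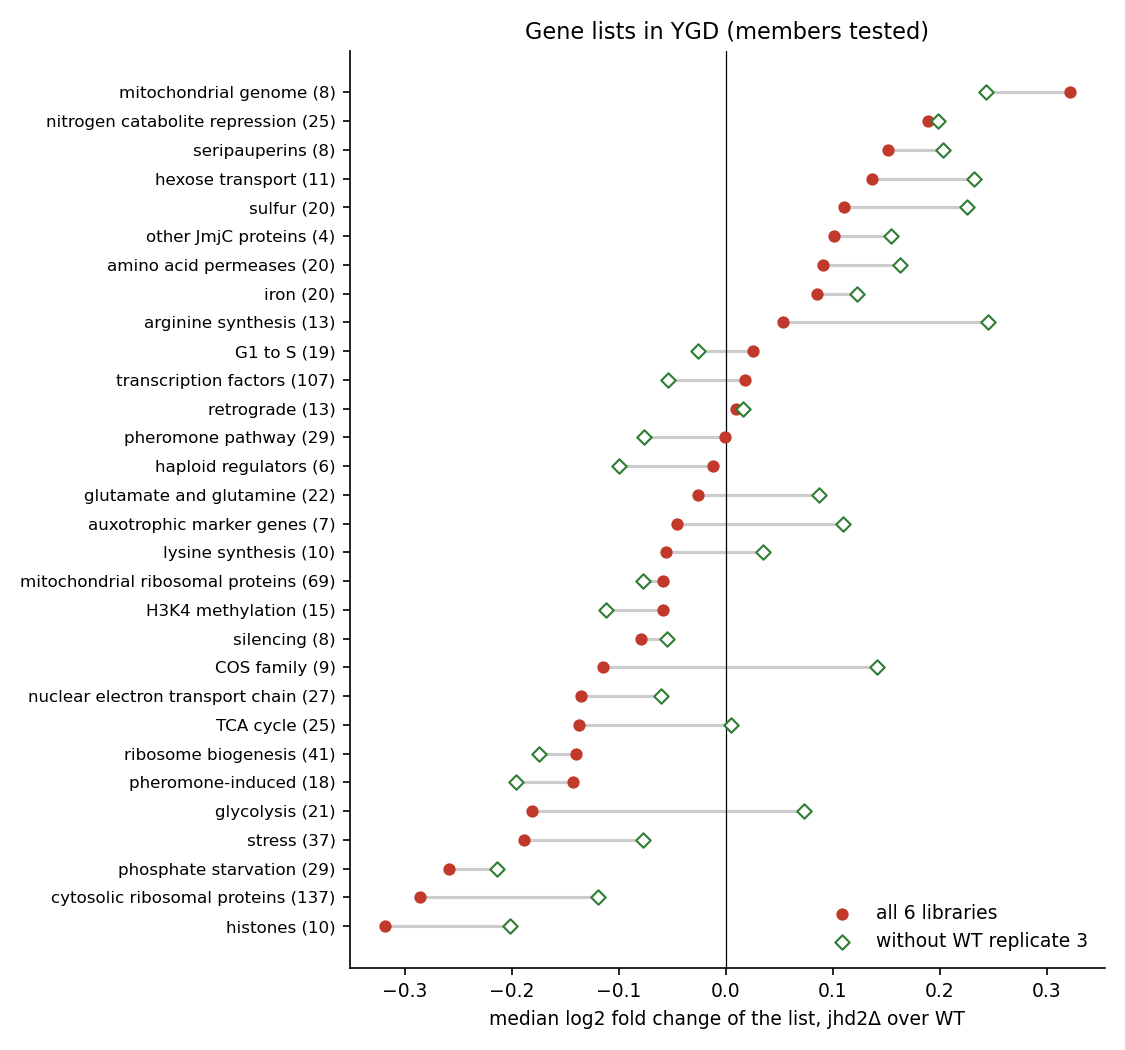
Median log2 fold change of jhd2Δ over WT for 30 gene lists, with the number of members tested in brackets, from all 6 libraries (red circles) and without WT replicate 3 (open diamonds). Medians lie between -0.32 (histones) and 0.32 (mitochondrial genome), and several lists cross 0 without WT replicate 3, among them glycolysis (0.07 without it, -0.18 with it) and COS genes (0.14 without it, -0.11 with it).

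In the fit without WT replicate 3, 17 features passed that did not pass with all libraries. Besides FIG2, AGA1, NFG1, PAU2 and the 4 genes of chromosome III they were YHR130C and YOL037C, higher in jhd2Δ, and YBL039C-A, HEM1, YDR524C-B, SLO1, YFL041W-A, YKL153W and CCW14, lower in jhd2Δ. HEM1, the first enzyme of heme synthesis, had 15.7, 19.2 and 12.1 FPKM in jhd2Δ, against 34.0, 34.9 and 8.20 FPKM in WT (log2 fold change -0.67, and -1.06 with an adjusted p of 0.0324 without WT replicate 3). CCW14, a cell wall protein, had 128, 137 and 111 FPKM in jhd2Δ, against 232, 217 and 51.0 FPKM in WT (-0.36, and -0.79 with an adjusted p of 0.0137 without WT replicate 3). In both, as deposited, the jhd2Δ values lay below WT replicates 1 and 2 and above WT replicate 3. SLO1, for a coiled-coil protein of the Golgi, had 5.59, 5.80 and 4.52 FPKM in jhd2Δ, against 10.6, 11.1 and 4.94 FPKM in WT (-0.77, adjusted p = 0.112 with all libraries). YBL039C-A, 84 bases long, had 0.0197, 0.0033 and 0.000382 FPKM in jhd2Δ, against 266, 201 and 0.00227 FPKM in WT.

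The strains were also compared in YAD, with other libraries in a table normalised separately, so that only the effect of jhd2Δ against WT within each table was set side by side. Its difference between the media was called for MF(ALPHA)2, STE3 and LIF1, 3 of 6121 features tested (0.0490%), and 5 features were called without WT YGD replicate 2. The differences at MF(ALPHA)2 and STE3 were called without any 1 of the 12 libraries, and without WT YGD replicate 3 they were 2.36 and 1.25. That at LIF1 was 1.67 (adjusted p = 0.0473) without WT YGD replicate 3, and it was lost without WT YGD replicate 1 (0.0703), WT YAD replicates 2 (0.0900) or 3 (0.0668), any jhd2Δ YGD replicate (0.0680 to 0.103) and jhd2Δ YAD replicates 1 (0.0988) or 3 (0.102). All 3 were lower in jhd2Δ in both media and less so in YGD. STE2 (6.30 in YGD and 6.66 in YAD), STE6 (3.79 and 3.91), MF(ALPHA)1 (-8.01 and -8.05) and JHD2 (-2.85 and -2.52) had effects in the same direction, and their difference was not called (adjusted p of 0.548, 0.741, 0.959 and 0.524). MFA2 differed by -2.56 (SE 0.615, adjusted p = 0.332) and SAG1 by 2.04 (SE 0.382, adjusted p = 0.168), which were not called.

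**Figure D5:**
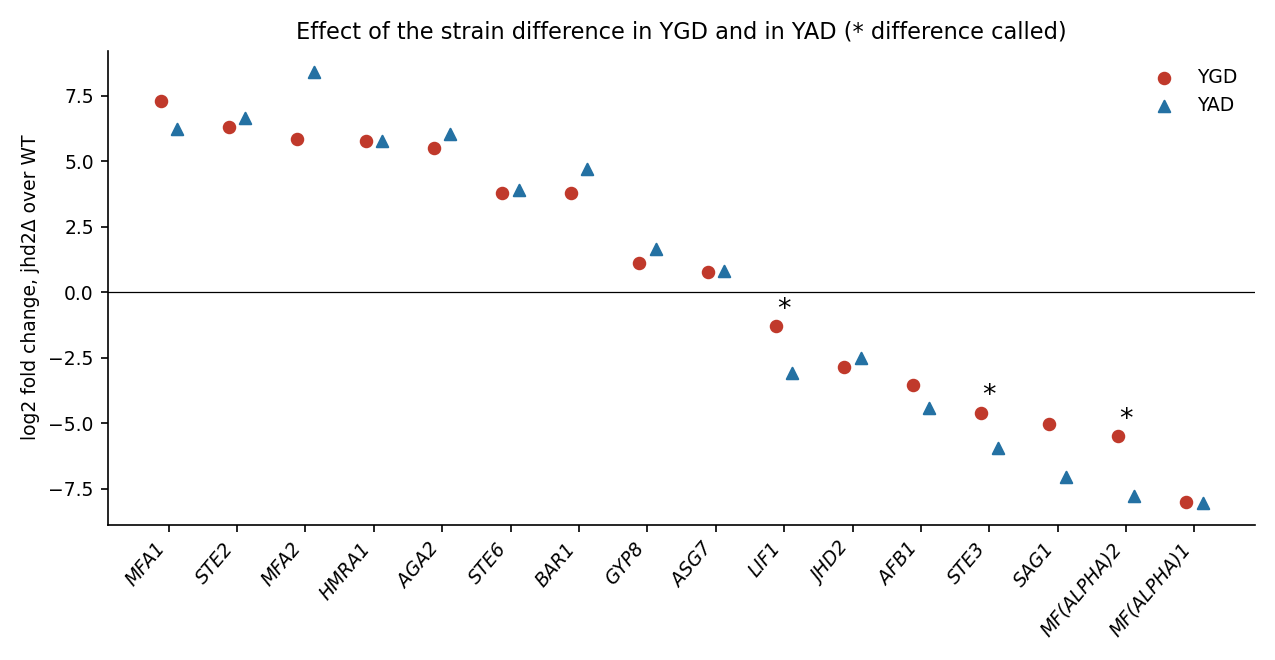
Log2 fold change of jhd2Δ over WT for JHD2, the mating type genes and their neighbours GYP8 and LIF1, in YGD (red circles) and in YAD (blue triangles), with an asterisk where the difference between media was called. The asterisks stand over LIF1 (-1.30 in YGD and -3.06 in YAD), STE3 (-4.59 and -5.95) and MF(ALPHA)2 (-5.48 and -7.78). The height of MFA1 depends on the pseudocount, since its WT libraries were listed at 0 in YGD and at 0, 0 and 21.9 FPKM in YAD.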

How the data were processed

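RNA was read from 3 jhd2Δ and 3 WT cultures in YGD and, for 1 contrast, from the same strains in YAD. The authors deposited FPKM per replicate culture, estimated with Cufflinks 2.1.1 from 51-base single reads that TopHat2 2.0.12 (Bowtie2 2.1.0) had placed on the genome after a FastQC 0.10.1 check. The deposited columns from Cuffdiff 2.1.1 (group means, fold changes, p-values and q-values) were not used, nor were the external spike-in rows. Read numbers behind the FPKM values are unknown, so precision was judged from the spread between cultures, and 0 can be a failed estimate. Values marked as too deeply covered (ENO2 and SCR1 in WT replicate 3) were treated as missing. Libraries were scaled by the median of ratios, features with a mean under 1 FPKM were left out, and log2(FPKM × scale + 1) was fitted with limma 3.58.1 in R 4.3.3 (eBayes with trend and robust, two-sided, Benjamini-Hochberg adjustment). The procedure was tested on simulated data, which held no outlying library such as WT replicate 3. Alternatives were other scales, pseudocounts, filters, weights, a replicate block and each library left out. Of 7041 feature IDs, 6045 matched RefSeq R64 locus tags, 6033 of them with the same start and end. The text names all called features, short lists in full, up to 3 highest and 3 lowest members of longer lists, the 5 uncalled features with the smallest p in each direction, features called only without WT replicate 3, and the 5 furthest features on either side of that library. Members and lists were chosen with earlier results of these data known. Genes named beyond that rule were chosen after their values were seen. The sequence of 1 promoter match is not reported here.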

Additional observations from a re-analysis of the deposited data

Results flagged for a closer look

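The effect of jhd2Δ against WT differed between YGD and YAD, by a limma contrast of both effects in 1 model, for 3 features. MF(ALPHA)2 had 13.98, 11.4 and 9.75 FPKM in jhd2Δ, against 506, 619 and 357 FPKM in WT in YGD, and 6.85, 10.4 and 7.84 FPKM in jhd2Δ, against 1860, 2442 and 2079 FPKM in WT in YAD. The difference of its log2 fold changes, YGD minus YAD, was 2.30 (SE 0.241, adjusted p = 0.00391). STE3 had 3.20, 3.55 and 3.04 FPKM in jhd2Δ, against 107, 121 and 53.6 FPKM in WT in YGD, and 1.88, 2.05 and 2.43 FPKM in jhd2Δ, against 195, 209 and 191 FPKM in WT in YAD (difference 1.36, SE 0.142, adjusted p = 0.00391). LIF1, beside MF(ALPHA)2, had 4.83, 5.87 and 4.50 FPKM in jhd2Δ, against 12.6, 18.9 and 7.08 FPKM in WT in YGD, and 2.69, 4.22 and 3.41 FPKM in jhd2Δ, against 32.2, 39.8 and 39.7 FPKM in WT in YAD (difference 1.77, SE 0.230, adjusted p = 0.0208). The call at LIF1 was lost without 8 of the 12 libraries left out singly. The tables were normalised separately, and medium and table cannot be told apart.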

How the results depend on the processing

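Of the 21 called features, 12 kept their call and direction in all settings that tested them: JHD2, HMRA1, MFA1, MFA2, STE2, STE6, BAR1, MF(ALPHA)1, MF(ALPHA)2, STE3, SAG1 and tQ(UUG)Q. JHD2 was not tested with the filter at 10 FPKM. The number called was 91 with array weights and 12 to 38 with 1 library left out (38 without WT replicate 3, 13 without jhd2Δ replicate 1, 12 without jhd2Δ replicate 3), and 15 to 21 under the other scales, pseudocounts, filters and eBayes settings and with failed estimates kept at 0, an alternative chosen after seeing the data. Deviations of same-numbered cultures from their strain means had correlations of -0.11, 0.02 and 0.11. These values cannot show whether the numbers pair cultures. The replicate block called 13. Without a library scale the median of all features was 0.20, and with scaling to the protein gene sum 0.12. YDR524C-B changed sign without a scale (0.16), with the protein gene sum (0.075) and over libraries left out (-0.68 to 0.27), as did YKL153W (0.056 without a scale, -0.74 to 0.14 over libraries left out). Over 711 comparisons of named features with their main result, 601 kept direction and side of the threshold, 61 lost the call, 42 gained it and 7 changed sign.

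Medians of lists, less that of all features, that moved by more than the spread between replicates were those of a-specific genes (5.73 and 4.82 at pseudocounts of 0.1 and 5, 5.68 with a filter at 10 FPKM, 4.97 to 5.65 with 1 library left out), alpha-specific genes (-4.46 at 5) and the cassette gene HMRA1 (8.31 at 0.1, 3.77 at 5). With 1 library left out, the pheromone pathway ran from -0.081 to 0.018, pheromone-induced genes from -0.25 to -0.069, haploid regulators from -0.11 to 0.032, marker genes from -0.15 to 0.10, histones from -0.38 to -0.21, sulfur metabolism from 0.031 to 0.22, G1 to S from -0.031 to 0.054 and phosphate starvation from -0.28 to -0.18 (-0.16 at a pseudocount of 5). A filter at 10 FPKM gave 0.11 for retrograde and 0.17 for silencing genes. The contrast of YGD with YAD called 1 feature without a scale and 2 to 5 with 1 library left out, 5 without WT YGD replicate 2. With the replicate block it called 2, and STE3 lost its call (adjusted p = 0.0861), as STE3 (0.580) and LIF1 (0.527) did without a scale.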

Other observations

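WT replicate 3 differed from WT replicates 1 and 2 by feature length and level. Its difference from their mean had an SD of 0.745 on the log2 scale over 6211 features, with 586 over 2-fold, where WT replicate 1 less replicate 2 had an SD of 0.497 with 120 over 2-fold. The 1553 shortest features (71 to 611 bases) had a median difference of -0.14 with an SD of 1.22, and the 1551 longest 0.00 with an SD of 0.408. For the 1553 features with the highest level in WT replicates 1 and 2 the median difference was 0.25. The 5 features furthest below (YGR174W-A, YLR120W-A, YBL039C-A, YDR371C-A and YER053C-A) and the 5 furthest above (tN(GUU)Q, tT(UGU)H, CDC65, YNL067W-B and tL(GAG)G) were 71 to 141 bases long.

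YGL149W, a dubious reading frame, and YLR149C-A were among the 5 uncalled features with the smallest p that were higher in jhd2Δ. YGL149W had 8.97, 12.5 and 11.5 FPKM in jhd2Δ, against 3.20, 4.72 and 3.08 FPKM in WT (log2 fold change 1.17, limma adjusted p = 0.180). YLR149C-A, 87 bases long, had 586, 448 and 314 FPKM in jhd2Δ, against 187, 178 and 118 FPKM in WT (log2 fold change 1.23, adjusted p = 0.217). Neither overlapped between the strains.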
